A study of Mus musculus with 16 samples.

Results

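The ganglia cultured with and without pancreatic stellate cells were 7 of the 16 RNA-seq libraries of a study of sympathetic nerves and cancer-associated fibroblasts. They were found in the nerve table by the names of their columns. Of these 7 libraries, 3 held superior cervical ganglion (SCG) explants cultured alone (SCG, replicates 1 to 3) and 4 held explants cocultured with pancreatic stellate cells (SCG+PSC, replicates 1 to 4). SCG and SCG+PSC replicates 1 to 3 were taken as 3 pairs by their numbers, 6 libraries in all, and SCG+PSC replicate 4, which has no partner, served as a check. The question of the comparison was what soluble signals from activated stellate cells change in sympathetic ganglia.

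The explants came from both ganglia of wild-type C57BL/6J mouse pups 1 to 4 days old, partly broken up with collagenase and a glass pipette. How many pups a well held was not given in the sources used here. In every group 8 to 13 explants were plated on poly-D-lysine and laminin in medium with nerve growth factor for about 70 hours. The SCG+PSC wells also had an insert seeded with 10000 mPSC1 cells, an immortalized line of mouse pancreatic stellate cells, so the ganglia shared medium with the cells but did not touch them. The SCG wells had no cells on an insert, and a second set of explants (SCG+MEF, 3 libraries, 1 for each number) had 10000 NIH 3T3 embryonic fibroblasts there instead. One fibroblast line of each kind was used, so what holds for mPSC1 cells need not hold for other stellate cells.

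The SCG holds the cell bodies of the sympathetic neurons that serve the head and neck. Its neurons make norepinephrine through tyrosine hydroxylase and dopamine β-hydroxylase, and they lie among satellite glia, Schwann cells, macrophages, endothelial cells and fibroblasts. Newborn ganglia also hold dividing cells. After axons are cut, ganglia are known to gain chemokine signals and macrophages, and non-neuronal cells divide.

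The main programs described below have well-studied regulators. Ligands of the aryl hydrocarbon receptor, a transcription factor that pairs with ARNT, switch on Cyp1a1 and the receptor's own repressor Ahrr. Type I interferon acts through a complex that holds IRF9 on genes with an interferon-stimulated response element. Genes of S phase and of mitosis follow E2F factors and the DREAM and MuvB complexes, which bind the cell cycle homology region (CHR).

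Promoters are shown for the called genes of these 3 programs with the largest changes that held a searched motif. The windows are 250 bases before to 50 bases after the start site, from RefSeq on GRCm38.p6, whereas the study's counts were made on GRCm39. They are Cyp1a1 at chr9:57697363-57697662 (plus strand), Ahrr at chr13:74292282-74292581 (minus strand), Slfn5 at chr11:82951852-82952151 (plus strand), Ncapg at chr5:45669675-45669974 (plus strand) and Mki67 at chr7:135716330-135716629 (minus strand). Capitals mark the core of the aryl hydrocarbon receptor element (GCGTG) in Cyp1a1 and Ahrr, the core of the interferon element (GAAANNGAA, N any base) in Slfn5, and the CHR (TTTGAA) in Ncapg and Mki67, each searched on both strands.
Cyp1a1: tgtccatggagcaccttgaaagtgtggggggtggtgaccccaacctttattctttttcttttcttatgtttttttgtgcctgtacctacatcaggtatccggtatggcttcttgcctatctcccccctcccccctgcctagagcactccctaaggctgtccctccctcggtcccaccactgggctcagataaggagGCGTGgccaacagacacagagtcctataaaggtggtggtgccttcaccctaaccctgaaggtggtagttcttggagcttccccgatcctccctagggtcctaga
Ahrr: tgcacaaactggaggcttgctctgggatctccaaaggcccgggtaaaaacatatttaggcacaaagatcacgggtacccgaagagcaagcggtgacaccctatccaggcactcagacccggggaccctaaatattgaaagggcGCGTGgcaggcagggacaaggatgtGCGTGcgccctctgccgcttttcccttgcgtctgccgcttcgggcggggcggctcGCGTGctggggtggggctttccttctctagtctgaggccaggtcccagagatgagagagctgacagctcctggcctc
Slfn5: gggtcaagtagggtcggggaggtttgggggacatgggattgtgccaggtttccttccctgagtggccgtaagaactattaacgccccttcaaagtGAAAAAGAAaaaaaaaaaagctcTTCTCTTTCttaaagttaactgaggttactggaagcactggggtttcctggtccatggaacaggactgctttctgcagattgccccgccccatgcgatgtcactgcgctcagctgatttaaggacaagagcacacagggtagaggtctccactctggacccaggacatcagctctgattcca
Ncapg: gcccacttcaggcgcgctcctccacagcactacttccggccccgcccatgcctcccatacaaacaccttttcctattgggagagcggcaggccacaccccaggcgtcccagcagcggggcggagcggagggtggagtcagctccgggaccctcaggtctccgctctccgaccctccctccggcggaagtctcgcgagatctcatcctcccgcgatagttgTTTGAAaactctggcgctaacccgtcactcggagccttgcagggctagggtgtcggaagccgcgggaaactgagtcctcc
Mki67: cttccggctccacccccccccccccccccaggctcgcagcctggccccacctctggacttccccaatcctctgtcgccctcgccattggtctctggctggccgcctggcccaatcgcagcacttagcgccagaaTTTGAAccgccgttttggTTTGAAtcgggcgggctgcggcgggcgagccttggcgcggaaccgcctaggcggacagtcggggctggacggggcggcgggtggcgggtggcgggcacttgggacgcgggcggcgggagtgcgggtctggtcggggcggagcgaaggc

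Among the 15745 windows of protein-coding genes tested, GCGTG was found in 47.0%, GAAANNGAA in 7.16% and TTTGAA in 12.4%. TTTGAA was found in 26 of 33 windows of the mitosis list (78.8%), GAAANNGAA in 25 of 42 windows of the interferon list (59.5%) and GCGTG in 6 of 8 windows of the aryl hydrocarbon receptor list (75.0%). The Cyp1a1 window held 1 GCGTG, starting 54 bases before the start site, and the Ahrr window held 3. The Irf7 window held no GAAANNGAA, and the windows of Mcm10 and Tk1 held neither of the E2F sites searched, TTTGGCGC and TTTCCCGC. These E2F sites were in 0.819% and 1.75% of all windows and each in 6 of 37 windows of the replication list (16.2%). Rtp4 and Oas2 were not in the table.

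The libraries were deep and alike in size. Reads on genes, recovered from the deposited values, ranged from 32013901 to 35975984 over the 6 paired libraries, and 98.2% to 98.5% of the normalized counts in the 7 libraries came from protein-coding genes. Libraries of 1 group nevertheless differed. The SD of log2 differences between libraries, over 12130 genes with a mean of at least 100, was 0.425 to 0.571 between SCG libraries. It was 0.271 to 0.429 between SCG+PSC libraries, apart from replicates 3 and 4, which were closer to each other than any other pair of either group (0.165). SCG+PSC replicate 4 was therefore close to a library already in the pairs. SCG+PSC replicate 2 stood apart from the other 3 more often than any of them, as the highest library for 325 and the lowest for 176 of 12860 genes with a mean of at least 50.

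The explants carried the markers of a sympathetic ganglion in every library, but in amounts that followed the replicate number. The summed normalized count of 19 noradrenergic markers was 157600, 94607 and 228549 in SCG replicates 1, 2 and 3, and 161012, 113777 and 203621 in SCG+PSC. SCG replicate 2 was thus the lowest of its group and so was SCG+PSC replicate 2. Fibroblast and mural markers went the other way, with sums of 377914, 575170 and 427501 in SCG and 459995, 562112 and 481817 in SCG+PSC. In bulk RNA, fewer cells of a type and less RNA per cell cannot be told apart. None of the 19 noradrenergic and none of the 14 glial markers was called by the test described next, although the lipid carrier Apoe, a glial marker, passed on its adjusted p and fell short of the fold required (log2 fold change -0.45 ± 0.08 (SE), limma adjusted p = 0.0144).

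**Figure D1:**
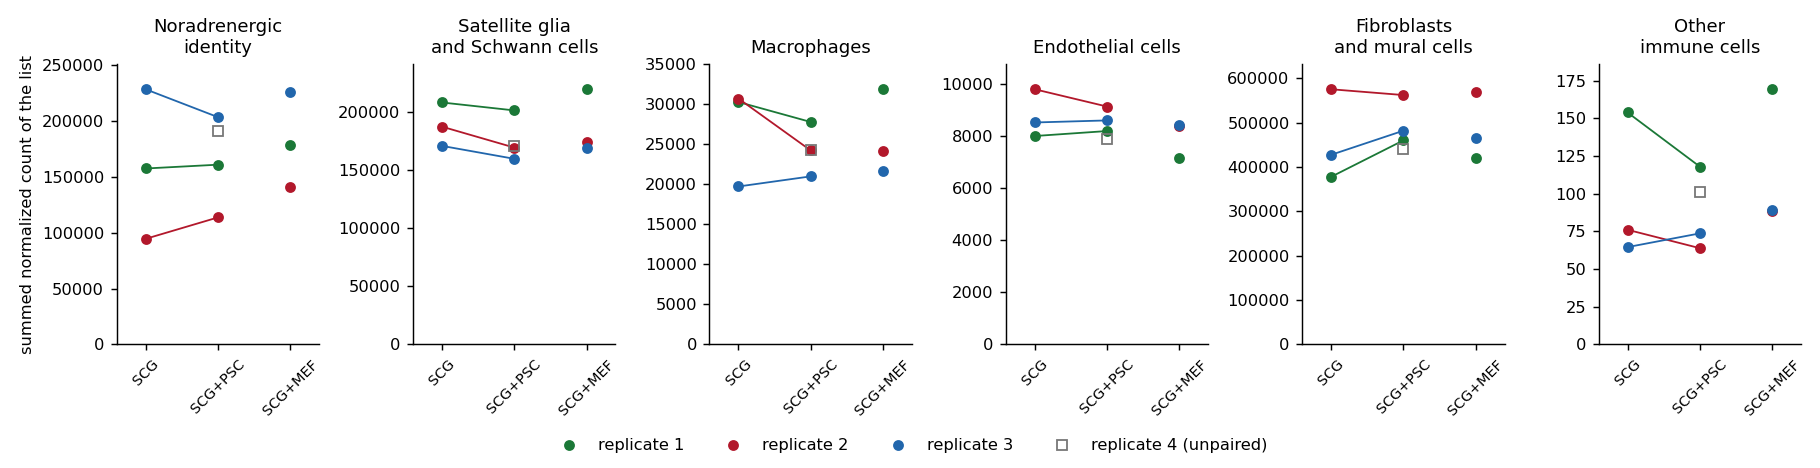
Summed normalized count (linear axis from 0) of 6 marker lists in each library, with lines joining SCG and SCG+PSC libraries of the same number and an open square for SCG+PSC replicate 4. Replicate 2 had the lowest noradrenergic and the highest fibroblast sum in SCG, SCG+PSC and SCG+MEF, and the groups overlapped for each list.

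Normalized counts were compared as log2(count + 1) with limma in the 9 libraries of SCG, SCG+PSC and SCG+MEF replicates 1 to 3, with the replicate number as a block. A gene was called where its p, adjusted by Benjamini and Hochberg's method over all genes tested, did not exceed 0.05 and its log2 fold change reached 0.5 in either direction. Of the 15908 protein-coding genes tested, 280 were higher in SCG+PSC (1.76%) and 29 were lower (0.182%). The called genes that were higher had a median log2 fold change of 1.02, from 0.51 to 4.55. Of the 280, 60 stood on the replication and mitosis lists, which hold 77 of the 15908 genes tested. Further cell cycle genes outside these lists were called higher, among them Aspm, Kif14, Knl1 and Plk4, so 60 is not a full count of such genes. In each of the 280 and of the 29 genes the 3 pairs moved the same way, which was so for 20.2% (higher) and 14.9% (lower) of all genes tested. In 96 of the 280 and in 20 of the 29 the SCG and SCG+PSC libraries did not overlap, against 4.33% (above) and 2.78% (below) of all genes tested. The genes were called from these same libraries with the pairs as a block. Both comparisons therefore describe the called genes and are no separate evidence for the calls. Many of the genes named below were also chosen among those without overlap, so that for them the lack of overlap is a description.

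These counts rest on the pairing and on the SCG+MEF libraries in the fit. With the block but only the 6 paired libraries, limma called 3 genes higher and 0 lower. Without the block, limma on the 9 libraries called 3 genes higher, Cyp1a1, Ccr1 and Mmp8, and 0 lower. In that fit 659 genes had an unadjusted p under 0.05, and 2108 with the block. Leaving out SCG replicate 3 left 29 higher and 3 lower, leaving out SCG replicate 1 left 68 and 10, and leaving out SCG+PSC replicate 1 left 112 and 12. With limma every call named below other than Cyp1a1, Ccr1 and Mmp8 was lost without the block. The adjusted p without it stands beside some of the genes described at length.

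**Figure D2:**
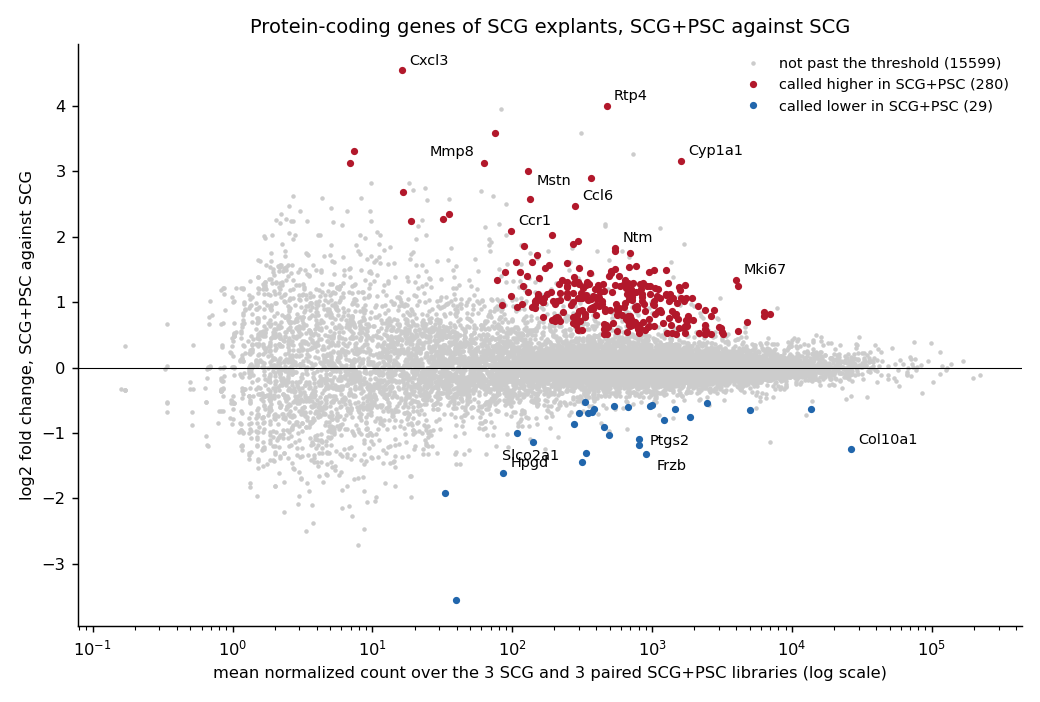
Fitted log2 fold change of SCG+PSC against SCG for each of the 15908 protein-coding genes tested, by mean normalized count over the 6 paired libraries (log axis). Red points are the 280 genes called higher, blue points the 29 called lower, and gray points the rest.

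Targets of the aryl hydrocarbon receptor were among the genes that rose. Of 10 measured members of the list, 4 were higher (Cyp1a1, Ahrr, Cyp1b1 and Tiparp) and 0 lower, with a median log2 fold change of 0.80 over the list and 0.01 over all genes tested. Cyp1a1 (ENSMUSG00000032315, chromosome 9 from 57595211 to 57611107 of GRCm39) encodes a cytochrome P450 that oxidizes aromatic compounds and is the receptor's classic target. Its normalized count was 301, 338 and 305 in SCG replicates 1, 2 and 3 and 2128, 3807 and 2779 in SCG+PSC replicates 1, 2 and 3, and 2807 in replicate 4. The lowest SCG+PSC library was far above the highest SCG library. The fold change was 8.96 (log2 fold change 3.16 ± 0.12 (SE), limma adjusted p = 3.45e-07, 0.00287 without the block).

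Ahrr encodes the repressor that competes with the receptor for ARNT. Its count was 383, 250.2 and 425 in SCG and 1106, 886 and 1020.2 in SCG+PSC (log2 fold change 1.54 ± 0.11 (SE), limma adjusted p = 0.000109, 0.0755 without the block). Cyp1b1, a related cytochrome P450, had higher counts and a smaller fold change, with 3335, 5496 and 4869.9 in SCG and 8326, 8148 and 7747 in SCG+PSC (log2 fold change 0.85 ± 0.14 (SE), limma adjusted p = 0.00999). Neither gene's groups overlapped. Coculture with NIH 3T3 cells gave Cyp1a1 counts of 1505, 2850.2 and 1923 and Ahrr counts of 1597, 1146 and 1562. The difference of SCG+PSC from SCG+MEF, in the same libraries of SCG+PSC, was 0.48 ± 0.12 on the log2 scale for Cyp1a1 (limma adjusted p = 0.111) and -0.51 ± 0.11 for Ahrr (limma adjusted p = 0.0539), and 0 of the 10 list members were called between the cocultures. Across all protein-coding genes, 152 were called higher in SCG+PSC than in SCG+MEF (0.955%) and 29 lower (0.182%). Of the 280 genes higher than in SCG, 118 were also called higher than in SCG+MEF and 2 were called lower. Of the 29 genes lower than in SCG, 3 were also called lower than in SCG+MEF and 0 higher. Both contrasts use the same SCG+PSC libraries.

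**Figure D3:**
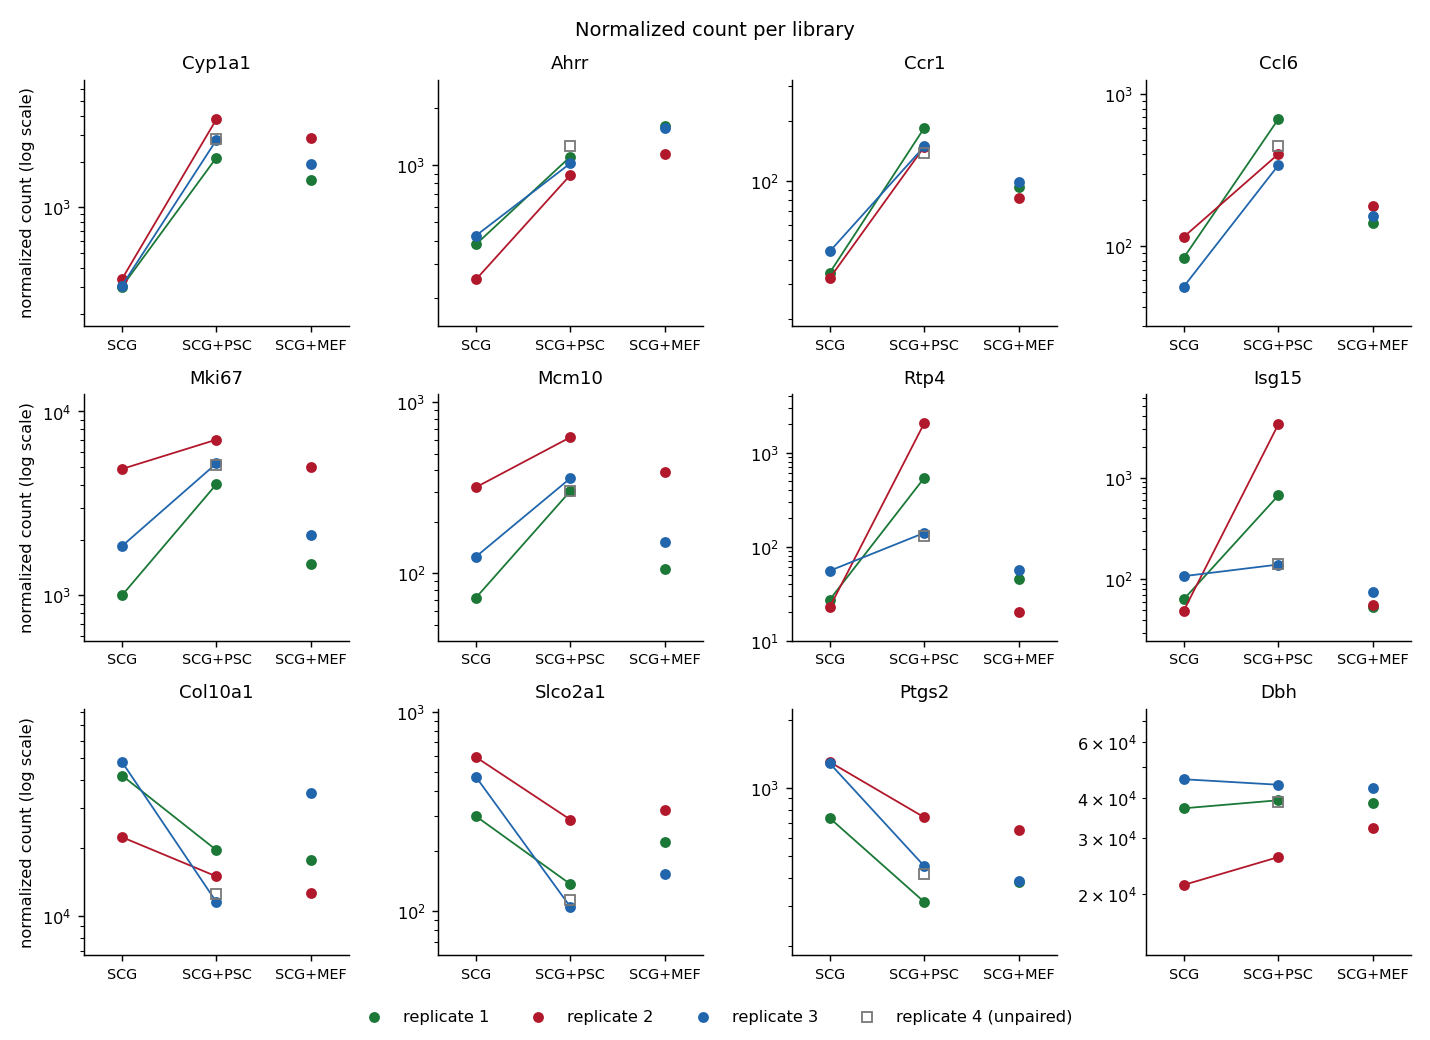
Normalized count (log axis) of 12 genes in each library, with lines joining SCG and SCG+PSC libraries of the same number, open squares for SCG+PSC replicate 4 and SCG+MEF libraries at the right. Cyp1a1, Ahrr, Ccr1 and Ccl6 do not overlap between SCG and SCG+PSC, Mki67 and Mcm10 rise within each pair from unequal starting levels, Rtp4 and Isg15 differ most in pair 2, and Dbh stays near its pair's level.

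Several chemokines and 2 of their receptors were higher in the cocultured ganglia. Of 27 members tested of 29, 6 were higher (Ccl6, Ccl9, Cxcl3, Pf4, Ccr1 and the scavenging receptor Ackr3) and 0 lower, with a median log2 fold change of 0.62 over the list. Ccl6, a CC chemokine of myeloid cells, had counts of 84, 115 and 54.3 in SCG and 682, 402 and 339.7 in SCG+PSC (log2 fold change 2.48 ± 0.24 (SE), limma adjusted p = 0.00129, 0.0606 without the block). The SCG+MEF counts of Ccl6 were 142, 182 and 158, below every SCG+PSC library, and SCG+PSC was higher than SCG+MEF by 1.5 ± 0.24 on the log2 scale (limma adjusted p = 0.0227). It was the only member of the list called between the cocultures. Without SCG replicate 3 the genes called against SCG were 3 of 27.

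Ccl9, a chemokine close to Ccl6 in the genome, was at 46.6, 166 and 91.2 in SCG and 275, 276 and 252 in SCG+PSC (log2 fold change 1.57 ± 0.27 (SE), limma adjusted p = 0.0144). Ccr1, a receptor for CC chemokines, was at 34.4, 32.3 and 44.1 in SCG replicates 1, 2 and 3 and 184, 148 and 148 in SCG+PSC replicates 1, 2 and 3. All 4 SCG+PSC libraries, replicate 4 at 137 included, lay above every SCG library (log2 fold change 2.09 ± 0.21 (SE), limma adjusted p = 0.00129, 0.0255 without the block).

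The CXC chemokines were at low counts. Pf4, made by platelets and macrophages, was at 59.7, 24.7 and 24.6 in SCG and 292, 96.3 and 303 in SCG+PSC (log2 fold change 2.59 ± 0.39 (SE), limma adjusted p = 0.00929). Cxcl3, a neutrophil attractant, was nearly absent from SCG, where 1 read was found in 3 libraries, and 97 reads were found in SCG+PSC replicates 1 to 3. The ratio of reads, scaled by library size, was 98.4, with a 95% exact counting interval from 17.3 to 3930, which covers counting error only. The fitted log2 fold change was 4.55 (limma adjusted p = 0.00255), a value that depends on the pseudocount. Cxcl10, an interferon-inducible chemokine, was at 39.5, 17.1 and 98.4 in SCG and 57.6, 150.0 and 69.4 in SCG+PSC, and its groups overlapped (log2 fold change 1.03 ± 0.56 (SE), limma adjusted p = 0.564).

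Of the 20 macrophage markers 1 was called, Mrc1, the mannose receptor, at 149, 283 and 163 in SCG and 390.4, 427 and 452 in SCG+PSC (log2 fold change 1.15 ± 0.18 (SE), limma adjusted p = 0.00999). The list as a whole had a median log2 fold change of -0.08, and its summed count was 19740 to 30734 in SCG and 21003 to 27803 in SCG+PSC replicates 1 to 3. Between the cocultures 0 of the 20 markers were called. Lyz2, lysozyme and far more abundant, was at 12080.0, 17251 and 8687 in SCG and 12116, 11283 and 8422 in SCG+PSC (log2 fold change -0.22 ± 0.14 (SE), limma adjusted p = 0.647). Clec4n, a lectin receptor of myeloid cells, was at 75.9, 78 and 32.8 in SCG and 203, 181 and 113 in SCG+PSC (log2 fold change 1.46 ± 0.26 (SE), limma adjusted p = 0.0158). Markers of other immune cells were close to absent, with 6 of 14 at 0 in all 6 paired libraries, among them the T cell genes Cd3d and Cd3e and the neutrophil gene Ly6g, and summed counts of 64.6 to 154 in SCG and 63.9 to 118 in SCG+PSC.

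Some secreted proteases also differed. Of 22 extracellular matrix proteases 3 were higher, Mmp8, Mmp12 and Plau, and 0 lower, and without SCG replicate 3 the count was 1. Between the cocultures 0 of the 22 were called. Mmp8, a collagenase best known from neutrophils, was at 15.2, 8.56 and 11.3 in SCG and 155, 70 and 114 in SCG+PSC, and its groups were far apart (log2 fold change 3.13 ± 0.30 (SE), limma adjusted p = 0.00129, 0.0255 without the block). Mmp12, the macrophage elastase, was at 1071, 856 and 281 in SCG replicates 1, 2 and 3 and 1835, 1741 and 1779 in SCG+PSC replicates 1, 2 and 3 (log2 fold change 1.49 ± 0.26 (SE), limma adjusted p = 0.0156). SCG replicate 3 was the lowest, while the SCG+PSC libraries were alike. Plau, the urokinase plasminogen activator, was at 363, 713 and 508 in SCG and 831, 1025 and 1052 in SCG+PSC (log2 fold change 0.92 ± 0.13 (SE), limma adjusted p = 0.00792).

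Genes of DNA replication and mitosis rose together in each pair. On the mitosis list 35 of 37 members were higher and 0 lower, with a median log2 fold change of 1.07, and on the replication list 25 of 40 were higher and 0 lower, with a median of 0.69. All 37 mitosis genes and 37 of the 40 replication genes were higher in all 3 pairs. The groups hardly separated, however. Every SCG+PSC library lay above every SCG library for 0 of 37 mitosis genes and 11 of 40 replication genes.

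SCG replicate 2 was the highest SCG library for all 37 mitosis genes. Mki67 (ENSMUSG00000031004, chromosome 7 from 135291513 to 135318299 of GRCm39), the Ki-67 antigen of dividing cells, was at 999, 4867 and 1852 in SCG replicates 1, 2 and 3 and 4024, 7027 and 5218 in SCG+PSC replicates 1, 2 and 3. SCG replicate 2 was above SCG+PSC replicate 1, and still below SCG+PSC replicate 2. The log2 differences within pairs were 2.01, 0.53 and 1.49 for pairs 1, 2 and 3 (log2 fold change 1.34 ± 0.20 (SE), limma adjusted p = 0.00854, 1 without the block). Over the whole mitosis list the median difference was 1.70, 0.49 and 1.07 in pairs 1, 2 and 3, and replicate 4 was 0.96 above the mean of SCG.

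Other mitosis genes followed the same order. Top2a, which untangles DNA, was at 1008, 5057 and 2159.9 in SCG and 4018, 7566 and 4804 in SCG+PSC (log2 fold change 1.24 ± 0.19 (SE), limma adjusted p = 0.00942). Ncapg, a condensin subunit, was at 115, 603 and 199 in SCG and 475, 999.5 and 549 in SCG+PSC (log2 fold change 1.41 ± 0.20 (SE), limma adjusted p = 0.00792). The microtubule proteins Nusap1 and Prc1 had log2 fold changes of 1.30 ± 0.20 and 0.88 ± 0.14 (limma adjusted p = 0.00999 for both).

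Replication genes differed in the size of their change. Mcm10, which acts with the replicative helicase when origins fire, was at 71.9, 319 and 125 in SCG and 303, 625 and 360.0 in SCG+PSC (log2 fold change 1.52 ± 0.19 (SE), limma adjusted p = 0.00492). Tk1, thymidine kinase, was at 129, 531 and 231 in SCG and 544, 1013 and 591 in SCG+PSC, and its groups were just apart (log2 fold change 1.45 ± 0.18 (SE), limma adjusted p = 0.00468). The licensing factor Cdc6 changed by 1.30 ± 0.21 and the ribonucleotide reductase subunit Rrm1 by 0.55 ± 0.10 on the log2 scale. The abundant Mcm6 and Pcna passed the test but fell short of the fold required, at 0.42 ± 0.07 (limma adjusted p = 0.017) and 0.48 ± 0.09 (limma adjusted p = 0.0179).

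These lists also differed between the cocultures, with 21 of 37 mitosis and 16 of 40 replication genes called higher in SCG+PSC than in SCG+MEF and 0 lower. Mki67 was at 1488, 4969 and 2118 in SCG+MEF, and SCG+PSC was higher by 1.08 ± 0.20 on the log2 scale (limma adjusted p = 0.0321). The calls depended on single libraries. Without the block 0 of the 77 genes were called. Without SCG replicate 3 the called genes were 0 of 37 and 7 of 40, without SCG replicate 1 they were 5 and 6, and without SCG+PSC replicate 1 they were 20 and 10, and without SCG+MEF replicate 3 they were 19 and 18, while the median of the mitosis list stayed between 0.80 and 1.35 over all fits that left out 1 library. In SCG and in SCG+PSC replicates 1 to 3 the fibroblast sums given above had the same order of replicates as the levels of these lists. SCG+PSC replicate 4 did not follow it. Its fibroblast sum, 440407, was the lowest of its group, while its levels of both lists lay above those of SCG+PSC replicates 1 and 3. The noradrenergic sum was lowest in replicate 2, where these lists were highest, but did not follow their order otherwise. The part of these sums in the differences within pairs was not tested.

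Interferon-stimulated genes had the largest median of the lists, and it differed most between pairs. All 51 members had a positive log2 fold change, with a median of 1.61, and 12 were called (Irf7, Irf9, Oas2, Xaf1, Gbp2, Trim25, Parp9, Parp14, Dtx3l, Rtp4, Samd9l and Slfn5). The median difference was 1.48 in pair 1, 3.01 in pair 2 and 0.11 in pair 3, and replicate 4 was 0.47 above the mean of SCG. SCG+PSC replicate 2 was the highest and replicate 3 the lowest of the 3 paired SCG+PSC libraries for all 51 genes. SCG+PSC replicates 1 and 2 lay above every SCG library for 48 and 51 of the genes, and replicates 3 and 4 for 25 and 28.

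Rtp4 (ENSMUSG00000033355, chromosome 16 from 23337811 to 23432972 of GRCm39), an interferon-inducible chaperone of receptors, was at 27.3, 22.8 and 55.3 in SCG replicates 1, 2 and 3 and 540.1, 2064 and 139.9 in SCG+PSC replicates 1, 2 and 3, and at 128 in replicate 4. Its level thus differed widely within SCG+PSC, and replicates 3 and 4 were nearest to the SCG libraries (log2 fold change 4.01 ± 0.75 (SE), limma adjusted p = 0.0212, 0.696 without the block). A share of 26.6% of its exon bases also lies in Gm45338 on the same strand. Isg15, the ubiquitin-like protein of the interferon response, picked for this description after its values were seen, was at 63.8, 49.5 and 108 in SCG and 667, 3326 and 139.9 in SCG+PSC and was not called (log2 fold change 3.26 ± 0.76 (SE), limma adjusted p = 0.0641).

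Irf7, the factor that amplifies interferon production, was at 36.5, 59 and 77.9 in SCG and 385, 1503 and 125 in SCG+PSC (log2 fold change 2.90 ± 0.58 (SE), limma adjusted p = 0.0304). Oas2, a sensor of double-stranded RNA, was at 15.2, 1.9 and 6.15 in SCG and 84.4, 324 and 20.3 in SCG+PSC (log2 fold change 3.59 ± 0.78 (SE), limma adjusted p = 0.0448). Trim34a, which has a close copy in Trim34b and is uncertain to that extent, was at 71.9, 74.2 and 45.1 in SCG and 189.9, 621 and 144 in SCG+PSC (log2 fold change 2.03 ± 0.29 (SE), limma adjusted p = 0.00853). In these 3 genes SCG+PSC replicate 2 was the highest library and replicate 3 the lowest of the 3 paired SCG+PSC libraries. Replicate 3 was above every SCG library, and so was replicate 4 for Irf7 and Trim34a, whereas for Oas2 replicate 4, at 13.1, was below SCG replicate 1. Slfn5, an interferon-inducible Schlafen protein with close copies, whose promoter is printed above and which was added after its values were seen, was at 114, 108 and 86.1 in SCG and 320.4, 788 and 220.1 in SCG+PSC (log2 fold change 1.89 ± 0.31 (SE), limma adjusted p = 0.0122).

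Some transducers and sensors of the pathway were not called. Ifih1, the RNA sensor MDA5, was at 129.6, 139.8 and 165 in SCG and 411, 1347 and 223 in SCG+PSC (log2 fold change 1.78 ± 0.42 (SE), limma adjusted p = 0.0713). Every SCG+PSC library was above every SCG library, and replicate 3 was the lowest of them. Stat2, a mediator of interferon signals, had an adjusted p of 0.181 and the antibody receptor Trim21 one of 0.344, both by limma with log2 fold changes of 0.76 ± 0.23 and 0.72 ± 0.28.

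How many interferon genes were called depended on single libraries. Without SCG+PSC replicate 3, 44 of the 51 were called. Giving that library a block of its own also gave 44, but this amounts to leaving it out and is no separate result. Without SCG replicate 3 the count was 0. It was 1 without SCG replicate 2, 3 without SCG replicate 1, 6 without SCG+PSC replicate 1, and 6 and 4 without SCG+MEF replicates 1 and 3. Without the block limma and edgeR called 0 and DESeq2 called 19, while the unadjusted p from limma was under 0.05 for 42 of the 51. Leaving out SCG+PSC replicate 2 lowered the median to 0.81, with 9 genes called. Without that library the log2 fold change was 2.697 for Rtp4, 1.56 for Trim34a and 1.36 for Slfn5, which were still called. It was 2.005 for Irf7 (limma adjusted p = 0.054) and 2.33 for Oas2 (limma adjusted p = 0.12), whose calls were lost, and 1.96 for Isg15 and 1.04 for Ifih1, which were not called with it either. Against SCG+MEF the median was 1.40 and 5 of the 51 genes were called higher. Antigen presentation by MHC class I, which interferon also drives, had a smaller median (0.30), with 1 of 22 genes called (H2-Q4, log2 fold change 0.62 ± 0.13 (SE), limma adjusted p = 0.0419, a gene with close copies) and medians of 0.27, 0.69 and 0.02 in pairs 1, 2 and 3.

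**Figure D4:**
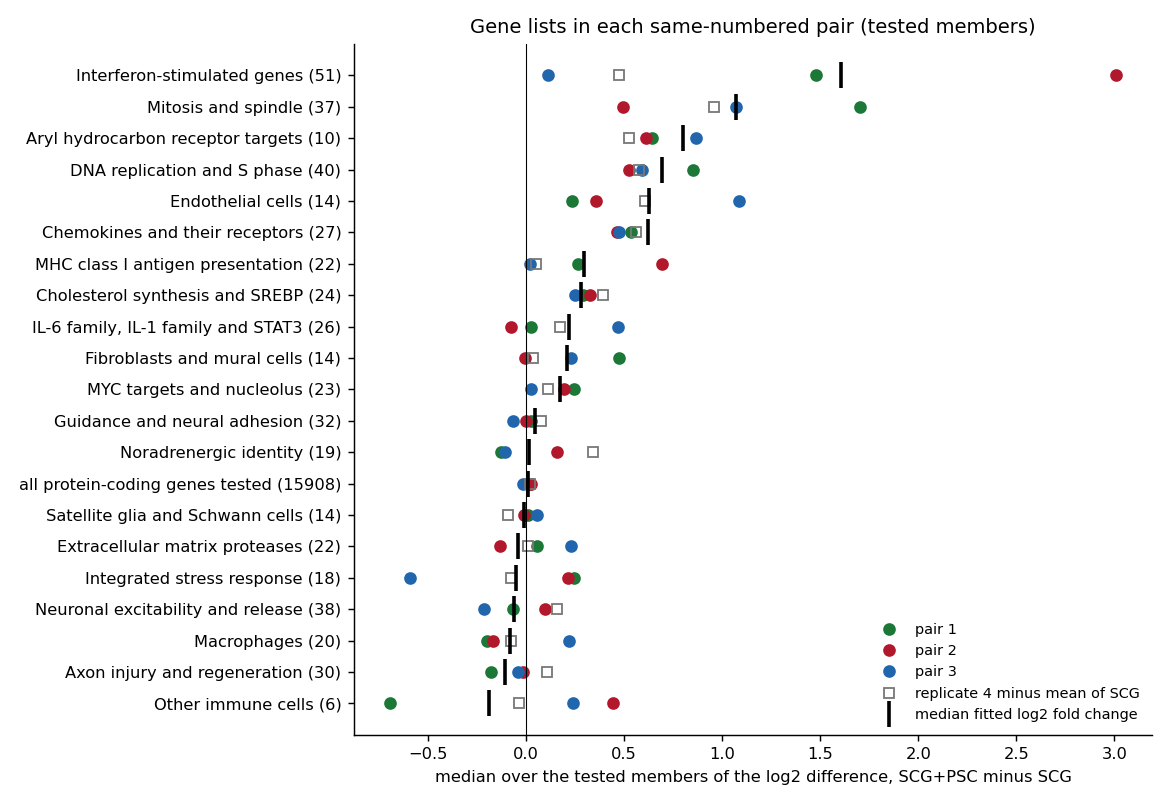
Median log2 difference of the tested members of each list in pairs 1, 2 and 3 (filled points), in SCG+PSC replicate 4 minus the mean of SCG (open squares), and the median fitted log2 fold change (black bars), with the number of members in brackets. The interferon list spreads from 0.11 in pair 3 to 3.01 in pair 2, the mitosis list from 0.49 to 1.70, and all protein-coding genes lie near 0.

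Cytokine receptors and guidance molecules gave a few further calls. Il1rap, the shared IL-1 receptor subunit, was at 1169, 2033 and 1260.3 in SCG and 1934, 2942 and 2415 in SCG+PSC (log2 fold change 0.73 ± 0.10 (SE), limma adjusted p = 0.00625). It was also higher in SCG+PSC than in SCG+MEF, by 0.72 ± 0.10 on the log2 scale (limma adjusted p = 0.0169).

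Il4ra, the receptor chain of IL-4 and IL-13, was at 4092, 3504 and 3271 in SCG and 6395, 5294 and 5875 in SCG+PSC (log2 fold change 0.69 ± 0.09 (SE), limma adjusted p = 0.00681). Its SCG+MEF counts, 6943, 6245 and 4758, lay in the range of those with stellate cells or around it, and the difference between the cocultures was -0.02 ± 0.09 on the log2 scale. Of 32 guidance and adhesion genes Ntm and Sema3a were higher and 0 lower. Ntm, neurotrimin, an adhesion protein of neurons, was at 258, 355 and 138 in SCG and 818, 938 and 753 in SCG+PSC (log2 fold change 1.83 ± 0.17 (SE), limma adjusted p = 0.000947, 0.495 without the block). Sema3a, a secreted repellent of sympathetic axons, was at 55.7, 101 and 51.2 in SCG and 189.9, 169 and 262 in SCG+PSC and at 566, 247 and 241 in SCG+MEF (log2 fold change 1.61 ± 0.34 (SE) against SCG, limma adjusted p = 0.0355). Mstn, the growth inhibitor myostatin, was at 41.5, 35.2 and 12.3 in SCG and 325, 172 and 189 in SCG+PSC and at 354, 236 and 142 in SCG+MEF (log2 fold change 3.01 ± 0.25 (SE) against SCG, limma adjusted p = 0.000544). The groups SCG and SCG+PSC did not overlap for any of Il4ra, Ntm, Sema3a and Mstn, and between the cocultures the largest of their differences in size was -0.67 ± 0.34 (limma adjusted p = 0.477).

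**Figure D5:**
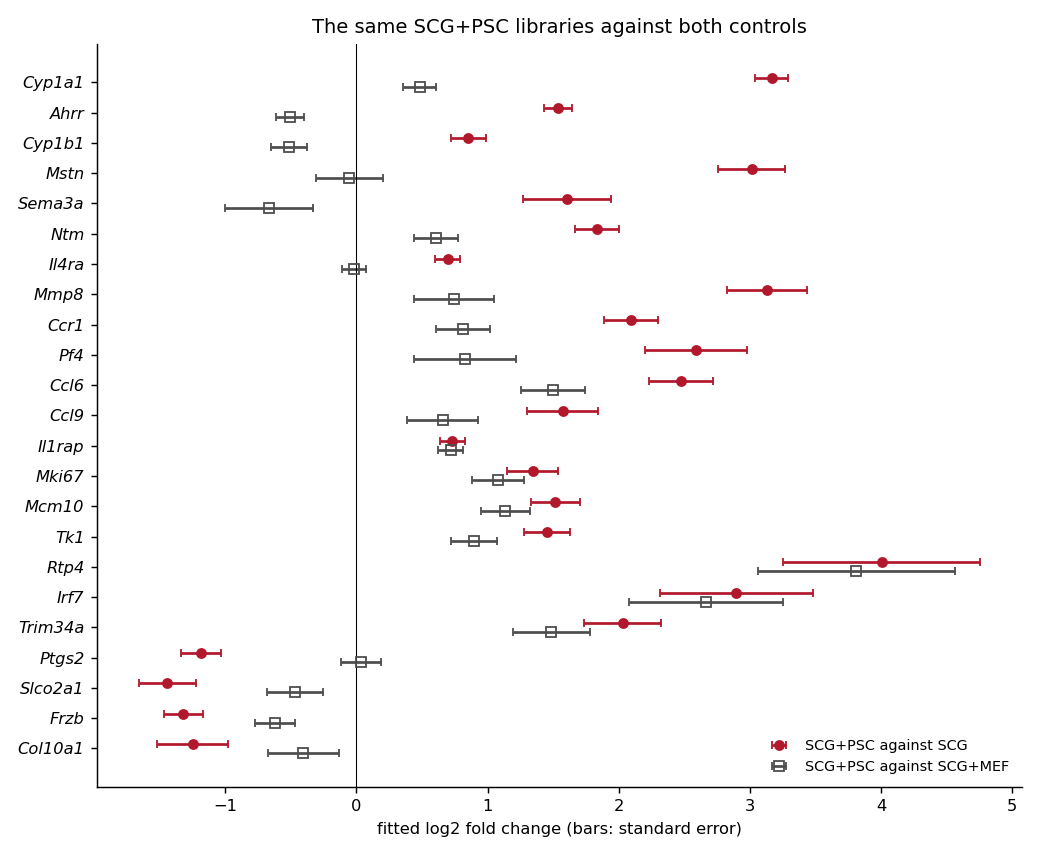
Fitted log2 fold change with its standard error for 23 genes, SCG+PSC against SCG (red) and against SCG+MEF (gray), from the same fit and the same SCG+PSC libraries. Mstn, Il4ra and Ptgs2 lie near 0 against SCG+MEF, while Rtp4 and Il1rap lie at close values against both.

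The neuronal, stress and growth lists held no called gene. None of 19 noradrenergic, 30 axon injury and regeneration, 38 excitability and release, 18 integrated stress response or 23 MYC target and nucleolar genes was called, and the list medians were 0.02, -0.11, -0.06, -0.05 and 0.17. Without the block an unadjusted p under 0.05 was reached by 0, 1, 0, 0 and 1 of them. Of the 23 MYC target and nucleolar genes, however, 22 had a positive log2 fold change. In 14 of the 23 all 3 pairs were higher, against 20.2% of all genes tested. The log2 fold change was positive for 10 of 30 axon injury and 9 of 38 excitability genes, against 8265 of all 15908. In 9 genes of each of these lists all 3 pairs were lower, against 14.9% of all genes tested. Against SCG+MEF, 2 of the 30 axon injury genes were called lower, and 0 genes of the other lists named here. The stress gene Gadd45a (log2 fold change -0.46, limma adjusted p = 0.014) and the tubulin Tubb6 (log2 fold change 0.47, limma adjusted p = 0.047), both on the axon injury list, passed on their adjusted p and fell short of the fold required. Dbh, dopamine β-hydroxylase, was at 37233, 21398 and 45933 in SCG and 39456, 26159 and 44139 in SCG+PSC (log2 fold change 0.10 ± 0.11 (SE), limma adjusted p = 0.814). Th, tyrosine hydroxylase, was at 18795, 8836 and 29967 in SCG and 19939, 12955 and 26429.6 in SCG+PSC (log2 fold change 0.15 ± 0.14 (SE), limma adjusted p = 0.786). Replicate 2 was the lowest library of both groups for both genes. The growth cone genes Gap43 and Stmn2 had log2 fold changes of -0.12 ± 0.08 and -0.01 ± 0.09.

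Genes of cholesterol synthesis had small differences. All 24 genes had a positive log2 fold change, with a median of 0.28, and 20 were higher in all 3 pairs, but only Idi1, isopentenyl diphosphate isomerase, was called, at 440.4, 596 and 602 in SCG and 755, 914 and 855 in SCG+PSC (log2 fold change 0.63 ± 0.10 (SE), limma adjusted p = 0.0118). Among fibroblast and mural markers 1 of 14 was called, Lum, the collagen-binding proteoglycan lumican (log2 fold change 0.65 ± 0.13 (SE), limma adjusted p = 0.0302), which differed from SCG+MEF by -0.64 ± 0.13 on the log2 scale. The 14 endothelial markers had a median of 0.62, from 0.23 in pair 1 to 1.08 in pair 3, with 0 called higher and 1 lower. Without the block 9 of the 14 had an unadjusted p under 0.05 by limma, in either direction. DESeq2 with the block called 2 higher and 1 lower. Their summed count, 8010 to 9806 in SCG and 8201 to 9142 in SCG+PSC, overlapped. The abundant Emcn and Eng had negative log2 fold changes, -0.478 ± 0.154 and -0.107 ± 0.095, and weigh heavily in that sum. Cdh5, VE-cadherin, was at 1135, 863 and 934 in SCG and 1456, 1108 and 1578 in SCG+PSC (log2 fold change 0.49 ± 0.11 (SE), limma adjusted p = 0.0643).

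The 29 genes lower in SCG+PSC had a median log2 fold change of -0.80 and held several enzymes and carriers of prostaglandins. Slco2a1 (ENSMUSG00000032548, chromosome 9 from 102865911 to 102973201 of GRCm39), the prostaglandin transporter, was at 299, 591 and 470.3 in SCG replicates 1, 2 and 3 and 136, 287 and 105 in SCG+PSC replicates 1, 2 and 3 (log2 fold change -1.44 ± 0.21 (SE), limma adjusted p = 0.00854, 1 without the block). Hpgd, which inactivates prostaglandins, was at 102, 167 and 119.9 in SCG and 40.3, 53.7 and 32 in SCG+PSC (log2 fold change -1.60 ± 0.30 (SE), limma adjusted p = 0.0212). Ptgds, a prostaglandin D synthase, was at 141, 299.6 and 149.6 in SCG and 98.8, 101 and 58.8 in SCG+PSC (log2 fold change -1.13 ± 0.25 (SE), limma adjusted p = 0.0458). None of these 3 genes overlapped between the groups, and the SCG+MEF counts of Slco2a1 were 222, 319.7 and 153. SCG+PSC differed from SCG+MEF on the log2 scale by -0.467 ± 0.215 for Slco2a1, -0.832 ± 0.301 for Hpgd and -0.080 ± 0.246 for Ptgds, and none was called.

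Ptgs2, the inducible cyclooxygenase, was looked at after its values were seen. It was at 735, 1302 and 1284 in SCG and 313, 741 and 451 in SCG+PSC (log2 fold change -1.18 ± 0.15 (SE), limma adjusted p = 0.00568), and at 383, 653 and 388 in SCG+MEF, from which SCG+PSC differed by 0.04 ± 0.15. A list of 17 prostaglandin genes, drawn up for the same reason, had these 4 lower and 0 higher, with a median of -0.24. The count lower was 1 without SCG replicate 3, 2 without SCG replicate 2, SCG+PSC replicate 1 or SCG+PSC replicate 3, and 0 without the block.

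The collagen genes Col10a1, Col4a5 and Col25a1 were also among the genes lower, while other matrix genes, such as Lum, were higher. The abundant Col1a1 and Col1a2 had positive log2 fold changes, 0.378 ± 0.154 and 0.231 ± 0.101. Neither was called (limma adjusted p = 0.389 and 0.434). The share called among all collagen genes was not counted. Col10a1, the chain of collagen X, was the most abundant of all genes called lower and stood at 42011, 22390.2 and 48230.3 in SCG replicates 1, 2 and 3 and 19599, 14991 and 11531 in SCG+PSC replicates 1, 2 and 3 (log2 fold change -1.25 ± 0.27 (SE), limma adjusted p = 0.0458). The drop was largest in pair 3, and the log2 fold change lay between -1.58 and -0.74 when single libraries were left out. Col4a5, a basement membrane collagen, was at 539.7, 847 and 560.5 in SCG and 314, 516 and 186 in SCG+PSC (log2 fold change -1.03 ± 0.21 (SE), limma adjusted p = 0.0355). Col25a1, a membrane collagen of neurons, was at 653, 631 and 461 in SCG and 325, 418 and 212 in SCG+PSC (log2 fold change -0.91 ± 0.18 (SE), limma adjusted p = 0.029). Against SCG+MEF the differences were -0.407 ± 0.271 for Col10a1, -0.775 ± 0.214 for Col4a5 and 0.355 ± 0.181 for Col25a1 on the log2 scale, and none was called.

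Frzb, a secreted Wnt antagonist, was at 1309, 1603 and 912 in SCG and 748, 519 and 316 in SCG+PSC (log2 fold change -1.32 ± 0.15 (SE), limma adjusted p = 0.00318). Srpx2, a secreted sushi-repeat protein, was at 1277, 2009 and 1325 in SCG and 932, 1126 and 619 in SCG+PSC (log2 fold change -0.80 ± 0.16 (SE), limma adjusted p = 0.0286). Plvap, which spans the pores of fenestrated endothelium, was at 432, 276 and 369.9 in SCG and 194, 165 and 226 in SCG+PSC (log2 fold change -0.86 ± 0.14 (SE), limma adjusted p = 0.0115). The groups did not overlap for these 3 genes, which were chosen on that condition. Against SCG+MEF their log2 differences were -0.62 ± 0.15 for Frzb, 0.048 ± 0.158 for Srpx2 and 0.283 ± 0.141 for Plvap, and none was called. Csf1, the growth factor of macrophages, also looked at after its values were seen, overlapped, at 2659.8, 10586 and 5389 in SCG and 2289.8, 6504 and 2632 in SCG+PSC, but was lower in each pair (log2 fold change -0.65 ± 0.12 (SE), limma adjusted p = 0.0218), a call kept in 4 of the 9 fits that left out 1 library.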

How the data were processed

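Bulk RNA-seq of SCG explants was used, with 3 SCG, 4 SCG+PSC and 3 SCG+MEF libraries. Groups and replicate numbers came from the labels, and since nothing says that samples of a group were separate animals, p-values measure the spread between these samples only. Gene lists and members were chosen with earlier results of these data known.

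The authors prepared stranded mRNA libraries, aligned reads to GRCm39 with STAR 2.7.10b, counted them by strand on GENCODE M33 basic and divided each nerve library by its DESeq2 1.38.3 size factor in R 4.2.2. The deposited values are therefore a signal, unfiltered normalized counts of 56941 genes, 21684 of them protein-coding. In 9 of 10 nerve libraries 100.0% of values were whole reads (within 0.1 read) after division by their smallest step, 32013901 to 39197230 reads per library. Depth, edgeR and DESeq2 were based on these reads. In SCG+PSC replicate 4 the step could not be accepted, so only its normalized counts were used.

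In R 4.3.3, limma 3.58.1 (empirical Bayes with a trend, 4 residual degrees of freedom) was fitted to log2(normalized count + 1) of the 23491 genes with a sum of at least 10 over 9 libraries. The pseudocount understates changes of genes with few reads. The study's model held the experimental date, which neither labels nor text give per library, and the replicate number took its place. Same-numbered libraries deviated together from their group means, with correlations across genes of 0.17, 0.29 and 0.20 for SCG and SCG+PSC and over 0.1 for all 9 same-numbered pairs of groups. For SCG and SCG+PSC libraries of different numbers they were -0.203 to -0.004, and taking deviations from a group mean itself pushes these values below 0. The pairs were set beforehand by the numbers and not by these correlations. Since the study names 4 dates and ties none to a library, replicates 3 of SCG and SCG+PSC may not share a date. SCG+PSC replicate 3 was therefore also given a block of its own. That leaves it no part in the contrast, as when it is left out, so it is no test of the date.

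Named genes were those the study's text names for nerve cocultures, in each direction the 10 called genes with the largest change among those with no overlap and a mean of at least 50, and from each list the 3 most abundant and the 3 called members with the largest change. Isg15, Slfn5, Ptgs2, Csf1, Ddx3y and Dpep1 and the lists of prostaglandin, DNA repair and Y chromosome genes were added after their values were seen. Some genes that this rule takes are not reported here. Alternatives were the fit without the block, with SCG+PSC replicate 3 in a block of its own, with 6 or 10 libraries, with SCG+PSC replicates 1, 2 and 4, pseudocounts of 0.5 and 8, a stricter filter and none, quantile normalization, adjustment over protein-coding genes, adjusted p alone, edgeR 4.0.16 and DESeq2 1.42.0 with and without the block, and leaving out each library. The limma fits with and without the block, and edgeR and DESeq2 with it, were tested on simulated data. Coordinates came from GENCODE M39 on GRCm39, and promoters from RefSeq on GRCm38.p6.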

Additional observations from a re-analysis of the deposited data

Results flagged for a closer look

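In 6 of the named genes 1 of the 4 SCG+PSC libraries stood apart from the other 3, by the gap to its neighbor over the whole range. This share was 0.847 for Trim34a, 0.833 for Ifih1, 0.835 for Isg15, 0.9 for Tk1 and 0.919 for Csf1, in each of which replicate 2 was the highest, and 0.849 for Mmp12, in which replicate 4 was the highest. About 5% of groups pass this limit by chance. Over 12860 genes with a mean of at least 50, replicate 2 stood apart as the highest library for 325 and as the lowest for 176, replicate 1 for 93 and 64, replicate 3 for 29 and 48 and replicate 4 for 45 and 25.

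The change with stellate cells and the change with NIH 3T3 cells differed by the limma test between both cocultures for 12 named genes. On the log2 scale SCG+PSC was above SCG+MEF by 3.81 for Rtp4, 1.49 for Trim34a, 1.53 for Slfn5, 1.5 for Ccl6, 1.13 for Mcm10, 1.08 for Mki67, 1.02 for Ncapg, 0.92 for Top2a, 0.89 for Tk1 and 0.72 for Il1rap. It was below SCG+MEF for Lum (-0.64) and Dpep1 (-1.02).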

How the results depend on the processing

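The number of calls rested on the replicate block and on the SCG+MEF libraries. Without the block, the 280 genes higher and 29 lower became 3 and 0 with limma, 3 and 0 with edgeR and 51 and 7 with DESeq2. With the block, the SCG and SCG+PSC libraries alone gave 3 and 0, and without it 1 and 0. All 4 SCG+PSC libraries without the block gave 8 and 0, and SCG+PSC replicates 1, 2 and 4 gave 4 and 0. The fits with 0 genes lower had 662 (SCG and SCG+PSC alone without the block, 2055 with it), 890, 674, 659 (limma without the block) and 596 (edgeR) unadjusted p under 0.05. DESeq2 with the block called 56 genes lower, and 359 higher. Leaving out 1 library gave 29 to 324 genes higher and 3 to 43 lower. Beside the fits above, the counts stayed within 1.5 times of 280 and 29 for pseudocounts of 0.5 and 8, both filters and quantile normalization. They also did so for adjustment over protein-coding genes, adjusted p alone and edgeR with the block. With SCG+PSC replicate 3 in a block of its own they did too, and 194 and 11 of the genes were kept. That fit is nearly the same as leaving the library out, though it is among the fits of the 992 values that follow. Of 992 recomputed values of the 62 named genes, those without 1 library aside, 648 kept direction and call, 331 lost the call, 12 gained it and 1 turned, Stmn2 at 0.087 with all 4 SCG+PSC libraries. When single libraries were left out, the log2 fold change ranged from -0.35 to 0.026 for Lyz2, -0.043 to 0.22 for Dbh, -0.083 to 0.36 for Th and -0.11 to 0.063 for Stmn2. With 3 libraries a group, the fit of the 9 libraries with the block left 4 residual degrees of freedom. Fits with the block on fewer libraries, or with SCG+PSC replicate 3 in a block of its own, left fewer. The empirical Bayes step of limma also draws on the spread of other genes, so its p-values do not rest on these alone.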

Other observations

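Genes of homologous recombination and Fanconi anemia repair, listed after the values of some were seen, were higher in 11 of 21 members (Brca1, Bard1, Brip1, Fanca, Fancd2, Fanci, Exo1 and Dna2 among them) and lower in 0, with a median log2 fold change of 0.75. They are known to be expressed mainly in dividing cells. As with the mitosis genes, SCG replicate 2 was the highest SCG library for 18 of the 21, and the medians within pairs 1, 2 and 3 were 0.91, 0.53 and 0.76. The count called was 0 without SCG replicate 3, 1 without SCG replicate 1 or SCG+PSC replicate 1, 4 without SCG+MEF replicate 3, 6 without SCG+PSC replicate 3 and 0 without the block.

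Dpep1, a membrane dipeptidase, was at 115, 108 and 163 in SCG and 378, 255 and 344 in SCG+PSC and at 634, 539.5 and 813 in SCG+MEF, so that both cocultures lay above SCG and the one with NIH 3T3 cells above the one with stellate cells (log2 fold change 1.33 ± 0.14 (SE) against SCG, limma adjusted p = 0.00195, and -1.02 ± 0.14 against SCG+MEF, limma adjusted p = 0.0169). It was chosen after its values were seen.

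Ddx3y, a gene of the Y chromosome, was among the genes called higher, at 706, 1331 and 872 in SCG and 1068, 2382 and 1582 in SCG+PSC (log2 fold change 0.77 ± 0.17 (SE), limma adjusted p = 0.0437), a call kept in 3 of the 9 fits that left out 1 library. The 4 Y chromosome genes looked at were all higher in all 3 pairs, with medians of 0.68, 0.77 and 0.79. The sex of the pups behind each library was not given in the sources used here, and the part of a differing share of male tissue in the other results was not tested.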
